A study of Mus musculus with 24 samples.

Results

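Unstimulated macrophages of CB-R1 mice were compared with those of C3Bir mice, on 3 arrays each of the 24 arrays in the series. The members were chosen by the strain and treatment in the labels and not by any measured value. All mice were male and homozygous for the targeted Il10 allele Il10tm1Cgn, so the controls lack the anti-inflammatory cytokine interleukin 10 as well. C3Bir is C3H/HeJBir-Il10tm1Cgn, a strain susceptible to colitis. CB-R1 is C3Bir.Cg-Il10tm1Cgn Cdcs1, the same background with a long piece of chromosome 3 from B6 that holds Cdcs1, and is described as resistant. For reference the series has B6, which is C57BL/6J-Il10tm1Cgn and resistant, and BC-R3, which is B6.Cg-Il10tm1Cgn Cdcs1 and carries the C3Bir form of the locus on the B6 background. Bone marrow of 3 male mice per genotype was cultured for 6 days, 3 wells were pooled for each RNA sample, and parallel wells received 1 µg/mL of Cbir1 flagellin, which comes from commensal bacteria of the gut, during the last 4 h. Ages of the mice and the ends of the transferred segment are not given in the sources used here, and each congenic strain is a single line.

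Cdcs1 is a locus for susceptibility to cytokine-deficiency-induced colitis in mice without interleukin 10. Macrophages are cells in which interleukin 10 normally restrains the response to bacterial products, and bone marrow-derived macrophages are a standard culture in which that response is measured outside the gut. In a congenic strain, a gene whose level follows the transferred segment may lie in it or may be controlled from it. Genes elsewhere in the genome are meant to carry the background form in both strains, which was not examined here. Il10 itself gave a log2 signal of 6.59, 7.44 and 7.25 on the C3Bir arrays and 6.81, 6.76 and 6.63 on the CB-R1 arrays. The strains overlapped at Il10 (adjusted p = 0.534, limma), and whether its probes lie in the deleted part was not examined.

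Values are log2 signals of Affymetrix probe sets, and 18193 genes were measured with 1 probe set each. Array medians lay between 6.55 and 6.64 and lower quartiles between 5.29 and 5.42. Where a strain lies near the lower quartile, differences are given in signal on the log2 scale and no fold is given. A gene was called when its p-value from limma, adjusted by Benjamini-Hochberg over all genes, was under 0.05. Nothing in the labels ties an array to a mouse, so a p-value reflects only how far these arrays spread, which may be technical, and 3 arrays a strain limit the precision. Macrophage markers were high in both strains: the mean log2 signals in C3Bir and CB-R1 were 13.74 and 13.76 for Csf1r, 12.76 and 12.42 for Adgre1, and 13.88 and 13.89 for Cd68. The mean of 22 macrophage markers was 12.22, 11.85 and 11.84 on the C3Bir arrays and 12.10, 12.07 and 12.23 on the CB-R1 arrays. Not all members were alike in the strains: their log2 differences ran from -0.55 for Cd14, which was called, to 1.35. The B cell marker Cd79a lay near the lower quartile at 5.67 and 5.56. It does not stand for its list. The mean of 11 B cell markers was 6.85, 6.78 and 6.76 on the C3Bir arrays and 6.73, 6.74 and 6.80 on the CB-R1 arrays.

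C3Bir arrays 2 and 3 stood apart from C3Bir array 1. Arrays 2 and 3 had 1 gene that differed at least 2-fold between them, against 293 and 295 genes between array 1 and each of these. The mean log2 signal of 19 inflammatory cytokine genes was 7.45 on C3Bir array 1, 8.58 on array 2 and 8.47 on array 3. It was 7.42, 7.40 and 7.49 on the CB-R1 arrays. On the arrays labelled flagellin it was 7.53, 7.65 and 7.56 in C3Bir and 7.54, 7.51 and 7.61 in CB-R1. Arrays 2 and 3 of C3Bir, labelled unstimulated, therefore had higher cytokine levels than every array of these strains labelled flagellin. Whether these arrays hold what their labels say was not tested, so unstimulated C3Bir is here a name given by the labels. The results are given with these arrays, and for some genes and the main gene lists also without them. For the other called genes, the dependence on these arrays is not shown gene by gene. Within CB-R1, arrays 1 and 2 had 4 genes at least 2-fold apart, while array 3 had 67 and 44 such genes against them.

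By adjusted p-value, the clearest differences between macrophages of CB-R1 and C3Bir were at Ifi44l, Olfml3 and Mcoln3. These lie on chromosome 3, which carries the B6 segment. Gbp2b of chromosome 3 and Calml4 of chromosome 9 came next, each with an adjusted p of 1.18e-04 (limma). Ifi44l and Gbp2b were high in C3Bir and near the lower quartile in CB-R1, while Olfml3 and Mcoln3 were higher in CB-R1. Over all chromosomes 183 of 18193 genes were called (1.01%), 142 higher in CB-R1 (0.781%) and 41 lower (0.225%). A change of 2-fold or more was reached by 31 of the called genes, with 19 rises and 12 falls, and 7 of the 31 lie on chromosome 3. On that chromosome 20 of 913 measured genes were called (2.19%), against 162 of 17119 on the other chromosomes (0.946%). The next highest share was that of chromosome 1, at 1.51%.

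The promoters of Ifi44l, Gbp2b, Olfml3 and Mcoln3 are shown because these 4 genes had the lowest adjusted p on chromosome 3. Each is the 250 bases upstream of the annotated start, from RefSeq on GRCm38.p6, written 5′ to 3′ on the strand of the gene, and capitals mark matches to an interferon-stimulated response element or a PU.1 site.
Ifi44l promoter, chr3:151762892-151763141, minus strand: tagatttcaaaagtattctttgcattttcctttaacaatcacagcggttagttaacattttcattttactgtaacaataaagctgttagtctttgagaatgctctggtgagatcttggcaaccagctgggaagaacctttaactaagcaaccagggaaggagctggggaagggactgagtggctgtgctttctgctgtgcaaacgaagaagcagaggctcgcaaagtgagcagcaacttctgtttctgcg
Gbp2b promoter, chr3:142594597-142594846, plus strand: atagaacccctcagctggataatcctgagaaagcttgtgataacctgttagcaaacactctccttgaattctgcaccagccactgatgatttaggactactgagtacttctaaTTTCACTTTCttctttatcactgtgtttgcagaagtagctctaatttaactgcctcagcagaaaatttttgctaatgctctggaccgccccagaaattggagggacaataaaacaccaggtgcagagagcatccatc
Olfml3 promoter, chr3:103738002-103738251, minus strand: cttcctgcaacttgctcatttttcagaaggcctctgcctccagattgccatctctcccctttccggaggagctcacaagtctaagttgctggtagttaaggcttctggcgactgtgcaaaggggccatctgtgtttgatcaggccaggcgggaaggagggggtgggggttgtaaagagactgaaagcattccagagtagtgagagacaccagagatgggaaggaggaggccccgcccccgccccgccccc
Mcoln3 promoter, chr3:146121541-146121790, plus strand: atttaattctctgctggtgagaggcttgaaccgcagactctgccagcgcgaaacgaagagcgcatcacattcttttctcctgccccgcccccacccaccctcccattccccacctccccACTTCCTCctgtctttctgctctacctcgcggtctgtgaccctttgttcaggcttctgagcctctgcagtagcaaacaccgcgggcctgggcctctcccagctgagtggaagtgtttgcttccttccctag
A total of 10 motifs was searched on both strands. The response element was searched as GAAA, any 2 bases and GAAA again, which 2.98% of 32851 promoters of this length hold. Of the 4 genes Gbp2b held it, on the minus strand 137 bases upstream of the start. The PU.1 site GAGGAAGT, present in 2.44% of promoters, was found in Mcoln3 on the minus strand, 131 bases upstream. No match to the interferon-gamma site TTCNNNGAA, present in 7.02% of promoters, was found in these windows. The only other match was CCAAT in Gbp2b, 42 bases upstream on the minus strand, a motif that 33.8% of promoters hold. These letters come from the reference genome, which is that of B6, and the C3Bir form was not analysed here.

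Ifi44l, a gene induced by interferon, gave log2 signals of 10.78, 10.00 and 9.68 on the C3Bir arrays. On the CB-R1 arrays it gave 5.44, 5.08 and 5.33. Every C3Bir array lay far above every CB-R1 array, and CB-R1 was at the level of the lower quartile. The signal was lower in CB-R1 by 4.87 ± 0.34 (log2 ± SE, adjusted p = 4.58e-08, limma). The other probe sets of Ifi44l differed in the same direction, by -4.34 and -0.90 on the log2 scale, the last with low signal in both strains.

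Gbp2b, an interferon-inducible guanylate-binding protein, gave 9.29, 11.61 and 11.61 in C3Bir and 6.01, 5.62 and 6.06 in CB-R1. The C3Bir arrays lay above the CB-R1 arrays, but C3Bir array 1 was lower than the other two. The difference was -4.94 ± 0.57 (log2 ± SE, adjusted p = 1.18e-04, limma). In a fit of the 6 arrays alone the adjusted p was 0.0537, and without C3Bir arrays 2 and 3 the difference was -3.39 with an adjusted p of 0.318. The neighbouring family members did not pass the test: Gbp7, Gbp3 and Gbp2 differed by -0.98, -1.59 and -1.15 (adjusted p of 0.424, 0.200 and 0.345). Gbp2 was 8.94 on C3Bir array 1 and 11.17 and 11.14 on arrays 2 and 3, against 8.81, 9.05 and 9.94 in CB-R1, so array 1 lay within the range of CB-R1. The guanylate-binding proteins are similar in sequence, and how far their probe sets share signal was not tested.

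Olfml3, which encodes a secreted glycoprotein with an olfactomedin domain, gave 7.17, 7.42 and 7.35 in C3Bir and 10.27, 10.08 and 10.17 in CB-R1. The strains were separated by far more than the spread within either, and C3Bir array 1 was like arrays 2 and 3. The level was 7.26-fold higher in CB-R1 (2.86 ± 0.19, log2 ± SE, adjusted p = 4.58e-08, limma). Mcoln3, a cation channel of endosomes and lysosomes, gave 5.93, 5.95 and 5.99 in C3Bir and 7.73, 7.86 and 7.49 in CB-R1. It was 3.33-fold higher in CB-R1 (1.74 ± 0.13, adjusted p = 1.09e-07), and its other probe set differed by 0.94. Its neighbour and relative Mcoln2 did not pass the test (-0.79 ± 0.26, adjusted p = 0.112). Olfml3 and Gbp2b, like Chil3, Cd5l and Sfrp2, have 1 probe set each on the array, so a strain's sequence variant under the probes and a difference in RNA cannot be told apart for them.

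**Figure D1:**
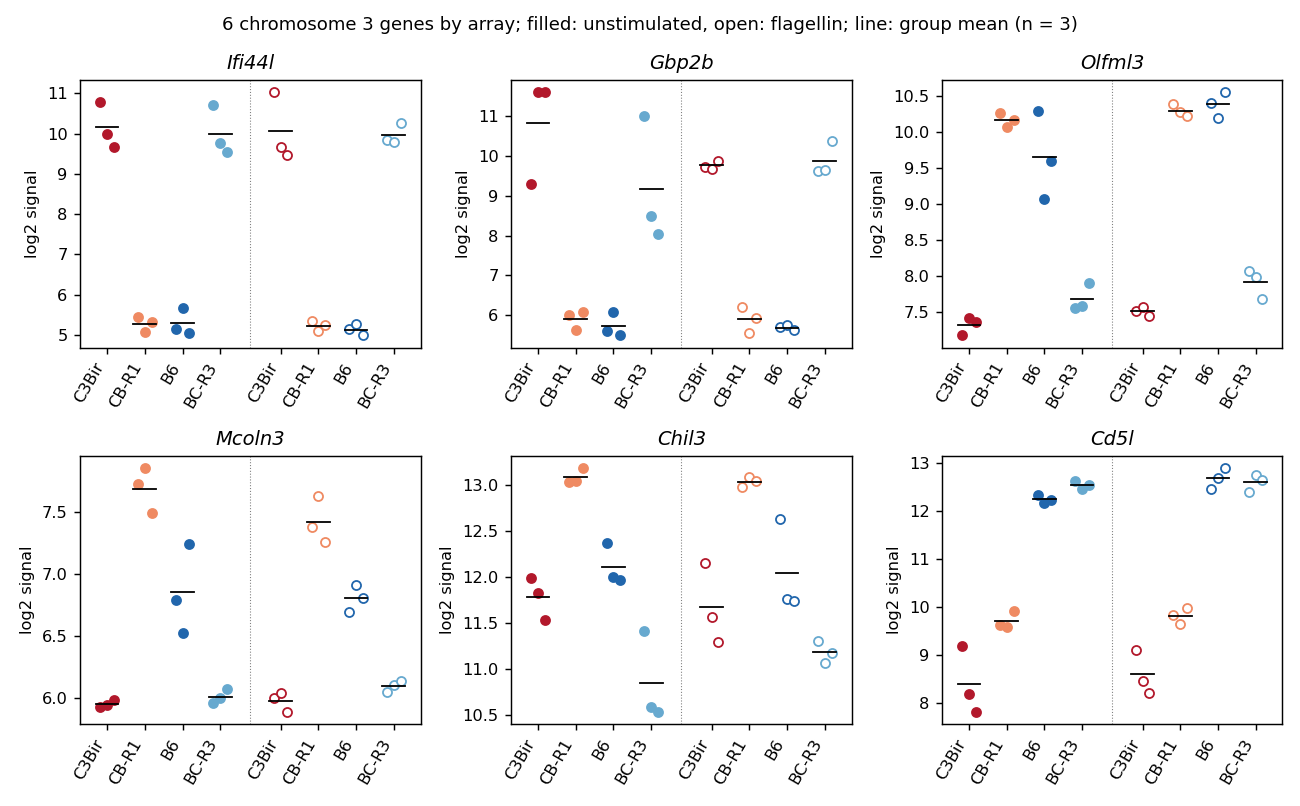
Log2 signal (vertical axis, each panel with its own range) of 6 chromosome 3 genes on all 24 arrays, by strain, with filled points for unstimulated and open points for flagellin arrays and a line at each group mean (n = 3). Ifi44l and Gbp2b are high in C3Bir and BC-R3 and low in CB-R1 and B6, Olfml3 and Mcoln3 run the other way, and Cd5l is near 12 or above in B6 and BC-R3 and lower in the others.

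Chil3 and Cd5l encode abundant secreted proteins of macrophages, a chitinase-like lectin seen in alternative activation and a scavenger receptor cysteine-rich protein. Chil3 gave 11.99, 11.83 and 11.53 in C3Bir and 13.03, 13.04 and 13.18 in CB-R1. The strains did not overlap, and Chil3 was 2.47-fold higher in CB-R1 (1.30 ± 0.24, adjusted p = 0.0196). Cd5l gave 9.19, 8.20 and 7.83 in C3Bir and 9.63, 9.59 and 9.93 in CB-R1, and it was 2.48-fold higher (1.31 ± 0.24, adjusted p = 0.0196). The C3Bir array nearest to CB-R1 at Cd5l was array 1. Against array 1 alone the differences were 1.09 for Chil3 and 0.53 for Cd5l, neither called, and each gene was called in 2 of the 6 fits that leave out an array of these strains. Cd5l in CB-R1, at 9.72, remained far below B6, at 12.24.

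Among the other called genes of chromosome 3, Sfrp2, a secreted modulator of Wnt signalling, gave 5.02, 4.82 and 5.03 in C3Bir and 5.61, 5.48 and 5.34 in CB-R1, all near the lower quartile. Its difference of 0.52 ± 0.07 was small and was called whichever of the 6 arrays was left out (adjusted p = 0.00268 with all arrays). P2ry12, an ADP receptor, was also low, at a mean of 5.50 in C3Bir and 6.51 in CB-R1. Hadh, a mitochondrial enzyme of fatty acid oxidation, rose by 0.75 ± 0.14, and Pde7a, a cyclic AMP phosphodiesterase, by 0.70 ± 0.16. Genes of dividing cells were among the small rises: Cks1b, a subunit of cyclin-dependent kinases, by 0.55 ± 0.12, and Cenpe, a kinetochore motor, by 0.47 ± 0.11. Ttf2, a transcription termination factor, Mettl14, of the RNA methyltransferase complex, and Larp7, a binding protein of 7SK RNA, rose by 0.59, 0.47 and 0.31. Dkk2, a Wnt antagonist, was 0.55 higher in signal at a level below the lower quartile, and Mllt11 and 4930579G24Rik rose by 0.50 and 0.71. The other probe set of Mllt11 went the opposite way, by -0.13. Gclm, the modifier subunit of the enzyme that starts glutathione synthesis, fell by 0.90 ± 0.20, from 11.39, 11.69 and 11.91 in C3Bir to 10.79, 10.47 and 11.04 in CB-R1. Mab21l3 was 0.33 lower in signal, below the lower quartile in both strains. Apart from Sfrp2, the adjusted p of the genes in this group ran from 0.0195 for Hadh to 0.0499 for Cenpe (limma).

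Along the 913 measured genes of chromosome 3 in RefSeq order, the called genes were spread from Pde7a at position 44 to Ifi44l at 874. Of the 7 that differed at least 2-fold, P2ry12 lay at 208, Cd5l at 313, Olfml3 at 602, Chil3 at 634, Gbp2b at 832, Mcoln3 at 859 and Ifi44l at 874. Tifa, at 761, an adaptor of innate signalling, was not called (-0.17, adjusted p = 0.585), and neither was Fcgr1, at 533, the high-affinity receptor of immunoglobulin G (1.10 ± 0.41, adjusted p = 0.157). Fcgr1 gave 11.67 on C3Bir array 1 and 10.08 and 9.85 on arrays 2 and 3, so C3Bir array 1 lay within the CB-R1 range of 11.37 to 12.06.

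**Figure D2:**
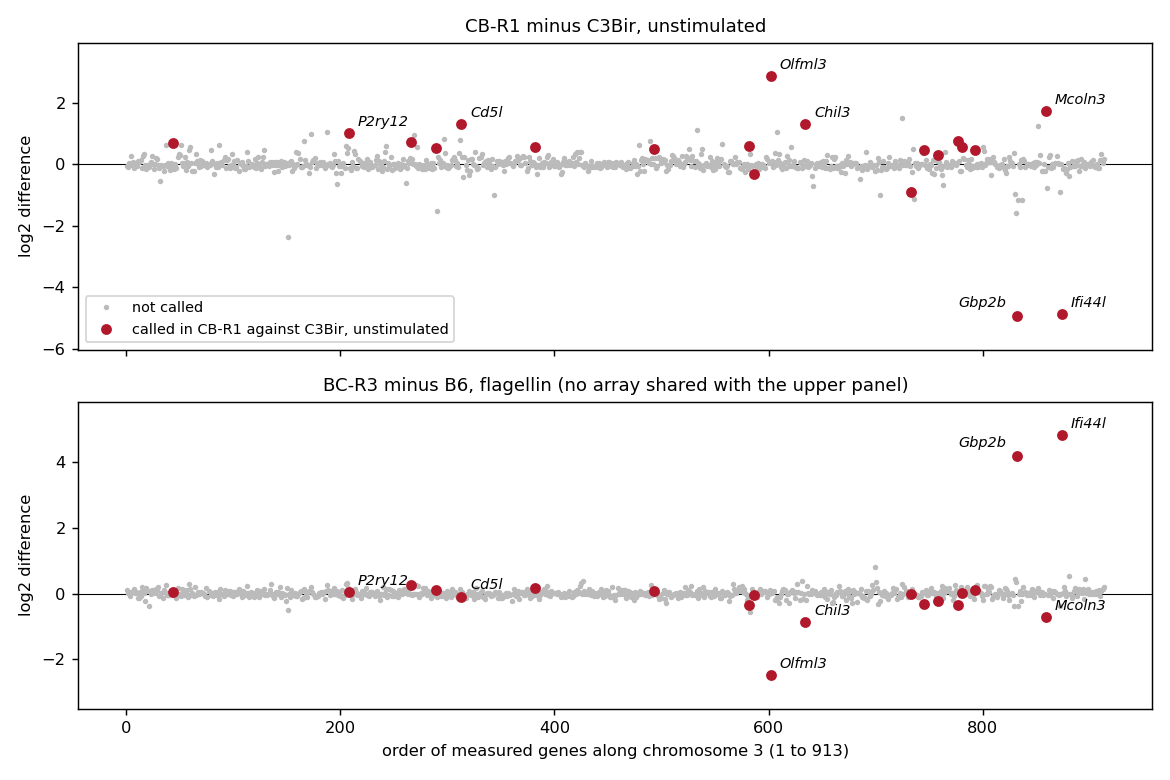
Log2 differences (vertical axis) of the 913 measured genes of chromosome 3 in their order along it (horizontal axis), above for CB-R1 minus C3Bir on unstimulated arrays and below for BC-R3 minus B6 on flagellin arrays, which share no array; larger points mark the 20 genes called in the upper comparison, named where they differ at least 2-fold. Ifi44l and Gbp2b are near -5 above and at 4.82 and 4.21 below, and Olfml3 is at 2.86 above and -2.48 below.

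To place CB-R1 between the parental strains, genes were taken that differed at least 2-fold between C3Bir and B6 on the flagellin arrays with an adjusted p under 0.05. There were 175 such genes (0.962% of all), and 13 of them lie on chromosome 3. At 5 of the 13 the unstimulated mean of CB-R1 lay nearer B6 than C3Bir: Sirpb1a at position 37, Gnb4 at 92, Olfml3 at 602, Gbp2b at 832 and Ifi44l at 874. On the other chromosomes the count was 12 of 162. The B6 mean used here is over unstimulated arrays that differ among themselves, and these counts were not recomputed without single B6 arrays. The 3 distal genes matched B6 closely: CB-R1 and B6 were at 5.28 and 5.29 for Ifi44l, 5.90 and 5.72 for Gbp2b, and 10.18 and 9.66 for Olfml3. At Sirpb1a the unstimulated means were 6.83 in B6, 6.27 in C3Bir and 6.89 in CB-R1. At Gnb4 the unstimulated means of B6 and C3Bir, 9.42 and 9.31, no longer differed in the direction of the flagellin arrays.

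CB-R1 lay nearer C3Bir at Noct (position 152), Tmem154 (297), Cd5l (313), Fcrl1 (314), Ctsk (504), Psrc1 (674), Gclm (733) and Adgrl2 (872). Some of these lay outside the parental range. Adgrl2, an adhesion receptor, was 10.46 in B6, 9.24 in C3Bir and 8.35 in CB-R1, and it lies just before Ifi44l in gene order. Gclm was 12.48 in B6, 11.66 in C3Bir and 10.77 in CB-R1. Noct, a circadian phosphatase, was 9.41 in B6 and 8.21 and 8.17 in C3Bir and CB-R1. These positions describe levels, and which bases CB-R1 carries at them was not analysed here.

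The flagellin arrays of the same strains, from wells of the same donors, gave the largest chromosome 3 differences again, and 5 of the 20 called chromosome 3 genes were called there too. Ifi44l was lower in CB-R1 by 4.83 ± 0.34 in log2 signal and Gbp2b by 3.87 ± 0.57, and Olfml3, Mcoln3 and Chil3 were higher by 2.80 ± 0.19, 1.44 ± 0.13 and 1.37 ± 0.24. At these 5 genes the adjusted p lay between 5.33e-08 for Ifi44l and Olfml3 and 0.0291 for Chil3. Gbp2b in C3Bir had a mean of 9.76 ± 0.10 there (SD, n = 3), without the spread of the unstimulated arrays. The other 15 had the same sign and were not called. Cd5l and Cks1b differed there by 1.22 and 0.59, close to their unstimulated differences, while Pde7a, Mllt11, Mettl14 and Mab21l3 differed by 0.13, 0.11, 0.05 and -0.03. In all, 10 genes were called on the flagellin arrays (0.055%), and 9 of them were among the 183, of which they make up 4.92%. The others were Ppbp, a platelet chemokine, at 1.49, Adgrg3 at 0.73, Pxylp1 at 0.67, Gstp1, a glutathione transferase, at 0.51, and the histone gene H2bc18 at 0.48. H2bc18, on chromosome 3, was the one not called on the unstimulated arrays, where it differed by 0.12.

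Of the 183 genes, 178 (97.3%) had the same sign on the flagellin arrays, and the median difference of the 183 was 0.52 on the unstimulated and 0.23 on the flagellin arrays. The arrays of both conditions come from the same donors, and the 183 were chosen by the unstimulated difference, so these values are a description. The difference between the conditions was tested for itself. That fit treated all arrays as independent, although both conditions come from the same donors. No pairing of arrays across conditions within a strain was modelled, so a lack of calls does not show equal differences. No gene was called (limma, lowest adjusted p = 0.910), and 894 of 18193 genes (4.91%) had an unadjusted p under 0.05. Without C3Bir unstimulated array 1 that count of called genes was 4.

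**Figure D3:**
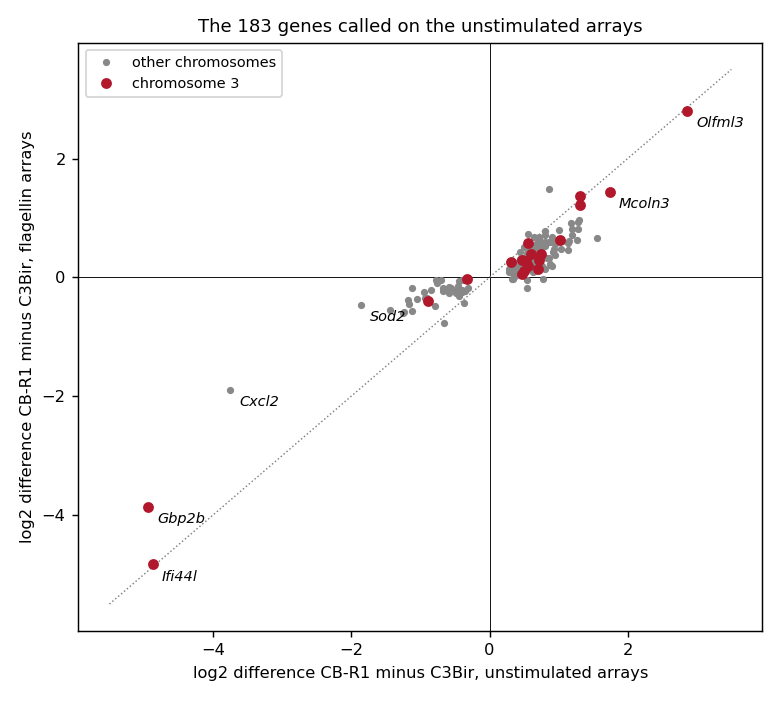
Log2 difference CB-R1 minus C3Bir on unstimulated arrays (horizontal axis) and on flagellin arrays (vertical axis) for the 183 genes called on the unstimulated arrays, with large points for chromosome 3 and a dotted line of equal differences. Ifi44l, Olfml3 and Mcoln3 lie near the line, while Cxcl2, at -3.75 and -1.89, and Sod2, at -1.86 and -0.47, lie well off it.

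In the reciprocal pair, BC-R3 against B6, the C3Bir form of the locus sits on the B6 background, and no array is shared with CB-R1 or C3Bir. On the flagellin arrays 3 genes were called in that pair (0.0165%), and these were Ifi44l (4.82, adjusted p = 1.09e-07), Gbp2b (4.21, adjusted p = 0.00218) and Olfml3 (-2.48, adjusted p = 3.13e-07). All 3 differed in the opposite direction from CB-R1 minus C3Bir. Mcoln3 was lower in BC-R3 by 0.71 on the flagellin arrays without passing the test (adjusted p = 0.105), and by 0.84 on the unstimulated arrays, where it was called (adjusted p = 5.15e-04). Cd5l did not follow the locus in that pair, with a difference of -0.08 on the flagellin and 0.30 on the unstimulated arrays, neither called.

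Arrays also stood apart within the unstimulated groups of this pair. Il6 gave 4.69, 10.93 and 11.20 in B6, with array 1 low, and Cxcl10 gave 12.64, 9.17 and 8.70 in BC-R3, with array 1 high. On the unstimulated arrays 5513 genes were called between BC-R3 and B6 (30.3%). That count was 6606 without B6 array 1 and 6381 without BC-R3 array 1. It was 2984 and 2894 without B6 array 2 or 3, and 3281 and 2757 without BC-R3 array 2 or 3. Of the 183 genes, 12 were called there in the opposite direction (6.56% of the 183 and 0.218% of the 5513) and 58 in the same direction (31.7%). The 12 were Ifi44l, Gbp2b, Olfml3, Mcoln3, Chil3 and Sfrp2 of chromosome 3, and Gstp1, Loxl3, Rnf149, Selenow, Sgk1 and Tex15 of other chromosomes. The background of 30.3% counts both directions, while each of these shares counts a single direction. The background in each direction was not counted, so neither share is read as a result about the 183 as a group. The means were 5.29 in B6 and 10.00 in BC-R3 for Ifi44l, and 9.66 and 7.68 for Olfml3. Chil3 was 12.11 in B6 and 10.84 in BC-R3, and its difference of -1.27 (adjusted p = 0.00122) stands beside 1.30 between CB-R1 and C3Bir. On the flagellin arrays Chil3 differed by -0.86 between BC-R3 and B6 and was not called. The parental strains were not called different at Chil3 on the unstimulated arrays (C3Bir minus B6 -0.33, adjusted p = 0.409, limma). CB-R1, at 13.08, lay above C3Bir, at 11.78, and above B6, while BC-R3 lay below both.

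The number of calls between CB-R1 and C3Bir depended on single arrays. Without C3Bir array 1 there were 1766 called genes, the 183 among them, and without CB-R1 array 3 there were 414. Without C3Bir array 2 or 3 or CB-R1 array 1 there were 6, and without CB-R1 array 2 there were 7. A total of 6 genes was called whichever of the 6 arrays was left out: Ifi44l, Gbp2b, Olfml3, Mcoln3 and Sfrp2 of chromosome 3, and Calml4 of chromosome 9. Calml4, a calmodulin-like protein, gave 5.75, 5.37 and 5.33 in C3Bir and 6.34, 6.47 and 6.77 in CB-R1 (1.04 ± 0.12, adjusted p = 1.18e-04). A fit of the 6 arrays alone called 8 genes (0.044%), which were Olfml3, Ifi44l, Mcoln3, Chil3, Trim59, Hmga2, Pdk4 and Slc18b1, and all but Trim59 are among the 183.

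**Figure D4:**
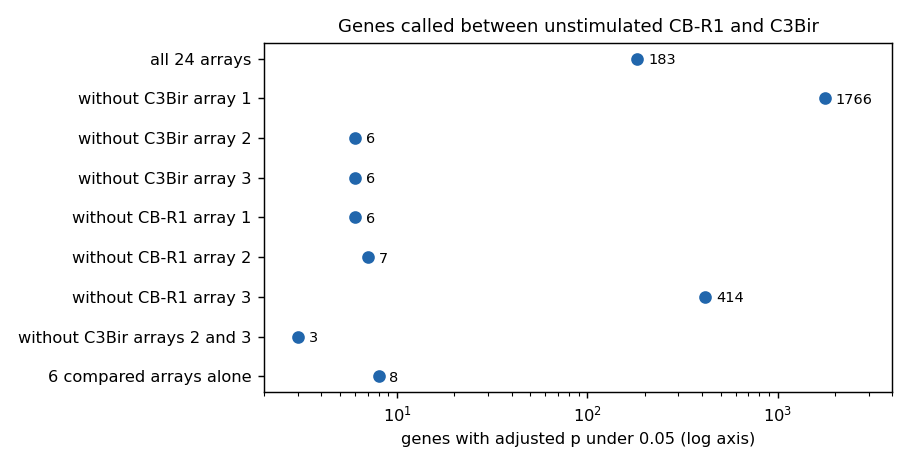
Number of genes called between unstimulated CB-R1 and C3Bir (horizontal log axis) in the fit of all 24 arrays and in fits with the arrays named on the vertical axis left out. The count is 183 with all arrays, 1766 without C3Bir array 1 and 3 without C3Bir arrays 2 and 3.

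At 155 of the 183 called genes (84.7%) array 1 was the C3Bir array nearest to the CB-R1 mean, against 47.1% of all genes, and at 136 (74.3%) array 3 was the CB-R1 array nearest to C3Bir, against 44.6%. With C3Bir represented by array 1 alone, all 183 genes kept their direction. At 182 of them this was fixed in advance, since the 3 arrays per strain did not overlap. The median absolute difference in that setting was 0.39 in place of 0.61. Under that setting 3 genes were called: Ifi44l, Olfml3 and Mcoln3. At 182 of the 183 called genes the 3 arrays of one strain lay above the 3 of the other, which the calling itself favours. Over all genes this was so at 20.8%. The median of each main gene list is therefore given also against C3Bir array 1 alone, where the median over all genes was 0.01. In bulk RNA, fewer cells of a type and less RNA per cell cannot be told apart.

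Genes of cell division were higher in CB-R1 at 11 of 23 measured members of a proliferation list, and none fell, against 0.781% of all genes called higher. The list had a median difference of 0.59 against 0.00 over all genes. Rrm2, a subunit of ribonucleotide reductase, gave 8.49, 8.01 and 7.69 in C3Bir and 9.38, 9.42 and 8.98 in CB-R1, and it was 2.29-fold higher (1.20 ± 0.22, adjusted p = 0.0191). Of the replicative helicase, Mcm7, Mcm6, Mcm5, Mcm2 and Mcm4 rose by 1.19, 1.04, 0.94, 0.92 and 0.54, while Mcm3 did not pass the test (0.50, adjusted p = 0.0646). Birc5, Top2a, Cdk1, Bub1 and Ube2c, which act at mitosis, rose by 0.86, 0.80, 0.68, 0.59 and 0.56. Mki67, the proliferation antigen, was not called (0.36, adjusted p = 0.246), and neither was Pcna (0.18, adjusted p = 0.273). The mean level of the list was 8.38, 8.11 and 7.89 in C3Bir and 8.82, 8.80 and 8.63 in CB-R1, so C3Bir array 1 was the highest of its strain and the strains did not overlap. Against C3Bir array 1 alone the median was 0.38 and on the flagellin arrays 0.48, with no gene called in either. Ccnd1, cyclin D1, was also higher (1.26 ± 0.28, adjusted p = 0.0382), at 9.98, 8.73 and 8.44 in C3Bir and 10.39, 10.27 and 10.27 in CB-R1.

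Beside the proliferation list, marker lists of other cell types had these levels. The mean of 18 stromal markers, such as collagens, was 7.71, 8.19 and 7.97 in C3Bir and 9.10, 8.70 and 8.58 in CB-R1, with no overlap. None of the 18 was called (limma), and at 15 of 18 the arrays did not overlap between strains, against 20.8% of all genes. Their median difference was 0.93 with all arrays, 1.23 against C3Bir array 1 alone and 0.93 on the flagellin arrays. Col3a1, a fibrillar collagen, differed by 1.79 ± 0.44 (adjusted p = 0.0502) and Cxcl12, a stromal chemokine, by 1.57 ± 0.47 (adjusted p = 0.0839). Pdgfra and Vim had differences of -0.07 and -0.14, and Thy1 lay near the lower quartile in both strains, at 5.32 and 5.48. The mean of 14 neutrophil markers was 10.80, 10.46 and 10.19 in C3Bir and 11.01, 11.31 and 11.17 in CB-R1, again with no overlap. Their median difference was 0.64 with all arrays, 0.35 against C3Bir array 1 alone and 0.86 on the flagellin arrays. Of these, Mmp8, the neutrophil collagenase, rose (1.18 ± 0.28, adjusted p = 0.0492), and Mpo, myeloperoxidase, differed by 1.18 ± 0.44 (adjusted p = 0.164). Marker lists of B cells, of T and NK cells, of dendritic cells and of mast cells and basophils had no called gene and medians of -0.07, 0.00, 0.05 and -0.02. The part of stromal or neutrophil cells in the proliferation difference was not tested.

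Of 19 measured NF-kB subunit and feedback genes, 2 fell in CB-R1 and none rose: Relb, a subunit (-1.17 ± 0.25, adjusted p = 0.0382), and Nfkbia, the inhibitor IkB alpha (-0.95 ± 0.23, adjusted p = 0.0495). Over all genes 0.225% were called lower. Relb gave 8.87, 9.78 and 9.64 in C3Bir and 8.06, 8.02 and 8.69 in CB-R1. The median of the list was -0.87, and it was -0.21 against C3Bir array 1 alone and -0.29 on the flagellin arrays. The list's mean was 9.53, 10.66 and 10.59 in C3Bir and 9.16, 9.20 and 9.51 in CB-R1, which puts C3Bir array 1 next to CB-R1 array 3. Without C3Bir array 1, 16 of the 19 were called lower, as were 621 of all 18193 genes in that fit.

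None of 19 inflammatory cytokine genes was called, where 1.01% of all genes were. Tnf gave 8.64, 11.45 and 11.16 in C3Bir and 8.41, 8.48 and 8.61 in CB-R1 (adjusted p = 0.110). Il1b gave 8.94, 11.79 and 11.65, against 7.77, 7.79 and 8.88 (adjusted p = 0.0814). Il12b, a subunit of interleukins 12 and 23, gave 5.60, 9.29 and 9.75, against 5.55, 5.55 and 5.74 (adjusted p = 0.154). At each of these, C3Bir arrays 2 and 3 were high and array 1 was close to CB-R1. The median of the cytokine list was -0.47, against -0.05 with C3Bir array 1 alone and 0.01 on the flagellin arrays.

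Of 22 chemokine genes, Cxcl2 and Cxcl16 fell and Ppbp rose, against 0.225% of all genes called lower and 0.781% higher. The median of the list was -0.39, with -0.10 against C3Bir array 1 alone and 0.11 on the flagellin arrays. Cxcl2, which attracts neutrophils, gave 9.85, 12.75 and 12.85 in C3Bir and 7.48, 7.36 and 9.34 in CB-R1 (-3.75 ± 0.84, adjusted p = 0.0382). C3Bir array 1 lay closer to CB-R1 array 3 than to the other C3Bir arrays. Cxcl16, a membrane-bound chemokine, gave 12.11, 12.37 and 12.19 in C3Bir and 11.26, 11.26 and 11.80 in CB-R1 (-0.78 ± 0.16, adjusted p = 0.0275), and here C3Bir array 1 was close to arrays 2 and 3. On the flagellin arrays Cxcl16 differed by -0.04, and it was called in 2 of the 6 fits that leave out an array. Ppbp gave 6.30, 6.43 and 6.41 against 7.06, 6.94 and 7.72 (0.86 ± 0.19, adjusted p = 0.0404). Ccl5 and Cxcl10, induced in inflammation, were not called (-1.93 and -0.87, adjusted p of 0.176 and 0.660).

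Antioxidant genes were lower in CB-R1 at 4 of 16 members, against 0.225% of all genes, and none rose. Srxn1, sulfiredoxin, gave 10.76, 11.58 and 11.68 in C3Bir and 9.71, 9.66 and 10.32 in CB-R1, a 2.71-fold lower level (-1.44 ± 0.24, adjusted p = 0.0139). Txnrd1, thioredoxin reductase, fell by 1.13 ± 0.26, Gclm by 0.90 ± 0.20 and Nfe2l2, the transcription factor NRF2, by 0.58 ± 0.14. Gclc, the catalytic partner of Gclm, did not pass the test (-0.75, adjusted p = 0.0646), and neither did Hmox1 (-0.74, adjusted p = 0.128). Against C3Bir array 1 alone these 4 genes differed by -0.86, -0.43, -0.63 and -0.30, and none was called. The median of the list was -0.31, with -0.13 against C3Bir array 1 and -0.25 on the flagellin arrays. Sod2, the mitochondrial superoxide dismutase and an NF-kB target, fell by 1.86 ± 0.44 (adjusted p = 0.0473) among the effector genes, from 11.08, 12.86 and 13.03 to 10.22, 10.23 and 10.96.

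**Figure D5:**
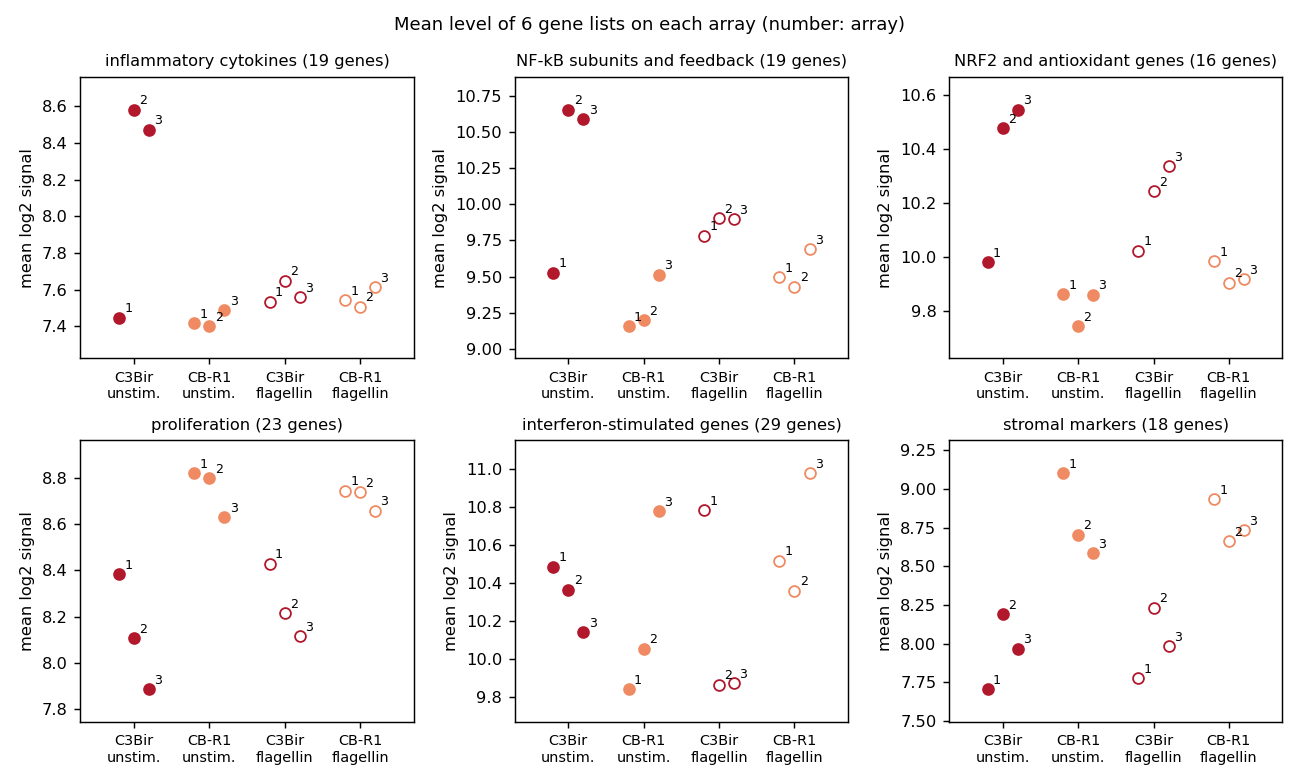
Mean log2 signal (vertical axis, each panel with its own range) of 6 gene lists on each array of C3Bir and CB-R1, with filled points for unstimulated and open points for flagellin arrays and the array number beside each point. Cytokine and NF-kB means are highest on C3Bir unstimulated arrays 2 and 3, and proliferation and stromal means are higher in CB-R1 in both conditions.

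Of 29 measured interferon-stimulated genes, Ifi44l alone was called, against 1.01% of all genes. The median difference was 0.05, with -0.04 against C3Bir array 1 alone and 0.55 on the flagellin arrays. The mean of the list was 10.49, 10.36 and 10.14 in C3Bir and 9.84, 10.06 and 10.78 in CB-R1, so the strains overlapped. Of 10 interferon-inducible GTPase genes Gbp2b alone was called, with a list median of -0.61, of -0.24 against C3Bir array 1 alone and of 0.21, the opposite sign, on the flagellin arrays. Ifi44l and Gbp2b thus differed by about -4.9 on the log2 scale while the lists around them had medians of 0.05 and -0.61.

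Over all genes 1.01% were called and 0.225% were called lower, the background for the counts of bacterial sensing and macrophage function here. Of 19 measured macrophage effector genes 2 were called, both lower. Of 25 pattern recognition genes Cd14, the lipopolysaccharide co-receptor, fell (-0.55 ± 0.13, adjusted p = 0.0420), and the median was -0.12, with -0.05 against C3Bir array 1 alone. Tlr5, the receptor of flagellin, was 7.46, 7.35 and 7.37 in C3Bir and 7.23, 7.51 and 7.51 in CB-R1 (0.02 ± 0.10, adjusted p = 0.944). Tlr4 and Naip5, a cytosolic flagellin sensor, were not called (0.41 and 0.25, adjusted p of 0.193 and 0.506). Slc11a1, the phagosomal metal transporter known for resistance to intracellular bacteria, fell by 0.48 ± 0.09 (adjusted p = 0.0196), from 11.96, 12.12 and 12.16 to 11.55, 11.46 and 11.78. Fcgr4, an activating immunoglobulin receptor, rose by 0.50 ± 0.11 (adjusted p = 0.0382). Against C3Bir array 1 alone, Cd14, Slc11a1 and Fcgr4 differed by -0.27, -0.36 and 0.22. Chil3 was the only called gene of 18 of alternative activation. No gene was called among 11 of MHC class II and 15 of MHC class I presentation, 8 complement components, 17 of sterol synthesis and LXR targets, and 18 of glycolysis and hypoxia. With 1.01% of all genes called, a list of this size without a call says little.

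Outside these lists, the larger rises were Ctla2a, a protease inhibitor (1.56 ± 0.30, adjusted p = 0.0230), Plxdc2, a transmembrane protein (1.29 ± 0.31), Slc2a3, a glucose transporter (1.28 ± 0.26), and Lbh (1.28 ± 0.25). Dusp6, a phosphatase of ERK kinases, rose by 1.15 ± 0.27, Satb1, a chromatin organizer, by 1.14 ± 0.20, and Klf2, a transcription factor, by 1.01 ± 0.20. The larger falls were Cd83, an activation marker (-1.25 ± 0.27), Gpr132, a G protein-coupled receptor (-1.24 ± 0.25), Slamf7, a receptor of immune cells (-1.17 ± 0.26), and Ift57 (-1.12 ± 0.27). Slc11a2, an iron transporter, fell by 0.94 ± 0.16, and Tnfrsf1b, TNF receptor 2, by 0.90 ± 0.20. Ctla2a shows the pattern of most: 8.18, 6.89 and 6.85 in C3Bir against 9.30, 8.96 and 8.33 in CB-R1, with C3Bir array 1 nearest to CB-R1. Against C3Bir array 1 alone its difference was 0.68. Those of Cd83, Gpr132, Slamf7 and Ift57 were -0.47, -0.46, -0.83 and -0.14. Pdk4, a kinase that inhibits pyruvate dehydrogenase, was different: 4.51, 4.63 and 4.63 in C3Bir and 5.64, 5.60 and 5.38 in CB-R1, low signals with 3 like arrays in each strain (0.95 ± 0.17, adjusted p = 0.0175).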

How the data were processed

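The authors deposited 1 table of log2 signals per probe set for 24 Affymetrix arrays, 3 for each of 8 groups. Their summary and normalization method was not given in the sources used here. Since array medians were alike, the deposited values were used unchanged and unfiltered. Of 45037 probe sets, 4 were empty and 34944 of the rest had 1 gene symbol in the platform table. For 18193 genes the probe set of highest mean signal across the arrays stood for the gene, and 18032 were placed through RefSeq (GRCm38.p6).

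Group means were fitted to all 24 arrays with limma 3.58.1 in R 4.3.3, with eBayes (16 residual and 3.99 prior degrees of freedom), two-sided tests and Benjamini-Hochberg adjustment within each comparison. The procedure was tested on simulated data with the same independent noise on every gene and array, which says nothing about arrays that stand apart. Gene lists are described by counts and medians, with no set test: 28 lists held 478 genes, of which 433 were measured. Named genes were the 15 largest rises and falls among called genes whose arrays did not overlap, every called chromosome 3 gene, up to 4 called members of each list and a fixed set of genes of sensing and of the locus; of these the text describes the most informative. Genes called in every fit with 1 array left out or with the 6 arrays alone, the other members of lists, and genes that differ between the parental strains were named after their values were seen. The members and lists were chosen with earlier results of these data known. Replicate numbers of CB-R1 and C3Bir did not pair the arrays: the deviations of same-numbered arrays correlated at 0.0199, 0.0491 and 0.0657. Of 76 selected genes 37 had another probe set, 4 of them with one of opposite sign and none of these at an unadjusted p under 0.05. Alternatives were a filter on low values, median centring, quantile normalization, other uses of probe sets, other variance models, a replicate block, a 2-fold threshold and leaving out arrays.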

Additional observations from a re-analysis of the deposited data

How the results depend on the processing

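No called gene among the 76 selected ones changed direction in a setting tried. Where the arrays of the strains did not overlap, leaving out arrays could not change it. Of the genes not called, Il10, Tlr5, Naip5, Il12b, Nos2, Fcgr1 and Gbp2 changed sign without C3Bir arrays 2 and 3, to 0.15, -0.05, -0.16, 0.01, 0.02, -0.03 and 0.33, and Tlr5 also without CB-R1 array 2 or 3. Of 183 called genes, the count was 282 with a filter on low values, 8 with the compared arrays alone, 31 at a 2-fold threshold and 3 without C3Bir arrays 2 and 3, a setting chosen after seeing the data; leaving out single arrays gave 6 to 1766. Outside the 6 arrays, leaving out B6 unstimulated array 1 gave 563, BC-R3 unstimulated array 1 705, C3Bir flagellin arrays 1 and 2 281 and 80, BC-R3 flagellin arrays 1 and 2 112 and 74, and CB-R1 flagellin arrays 1, 2 and 3 110, 81 and 81. Of the 20 on chromosome 3, there were 5, 7 and 3 with the compared arrays alone, at 2-fold and without C3Bir arrays 2 and 3, and 5 to 91 leaving out single arrays, with 37 without B6 unstimulated array 1, 47 without BC-R3 unstimulated array 1, 13 and 11 without C3Bir and BC-R3 flagellin array 2, and 12 without CB-R1 flagellin array 2 or 3. With the replicate number as a fixed block, 407 genes and 32 on chromosome 3 were called, and as a random block 253 and 23; no called gene among the 76 was lost with either block. The 12 genes of opposite direction in BC-R3 against B6 became 19 when probe sets of a gene were averaged, 4 with the compared arrays alone, 4 at 2-fold, 3 without C3Bir arrays 2 and 3, and 5 to 59 leaving out single arrays, with 37 without B6 unstimulated array 1, 5 and 6 without arrays 2 and 3 of that group, and 7 without either BC-R3 unstimulated array 2 or 3, BC-R3 flagellin array 2 or CB-R1 flagellin array 3. The count of genes whose difference varied with condition was 0 to 4. With every probe set as its own feature CB-R1 lay nearer B6 at 8 on chromosome 3 and 19 elsewhere, against 5 and 12; leaving out single unstimulated arrays of C3Bir or CB-R1 gave 5 to 5 and 9 to 17. The causes of these changes were not tested. Quantile normalization and median centring moved the median over all genes by less than 0.01 on the log2 scale. Arrays per group limit precision, and weak signals near the lower quartile carry no call of detection.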
